A study of Mus musculus with 14 samples.

Results

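N-linked glycosylation attaches a preassembled glycan to asparagines of proteins that enter the endoplasmic reticulum (ER), and 33 genes of this pathway were followed in mouse liver under tunicamycin. The members were named by their function, from the supply of dolichol to the trimming of the transferred glycan, and each was read on the probe set that carried its symbol and had the highest mean log2 signal over the 14 arrays. All 33 had such a probe set among the 18193 genes that did, and 32 of them were among the 12052 genes tested. Dpm3 was the member left out, because its signal stayed at 29.1 or less on every array, below the value of 41.6 that at least 3 arrays had to exceed.

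The study compared wild-type (WT) mice with lsPERK mice, which its design text calls a knock-out. PERK, the product of Eif2ak3, is the kinase in the ER membrane that phosphorylates eIF2 when unfolded proteins accumulate. The treated groups, WT (n = 4 arrays) and lsPERK (n = 4 arrays), are liver RNA taken 6 h after tunicamycin at 1 mg/kg, while the controls of both genotypes (n = 3 arrays each) carried 0.3% DMSO with no time stated. The labels give neither strain, age and sex nor the promoter, cell type or part of the gene behind the knock-out, and they do not say whether replicates were separate animals. The p-values therefore describe the spread among these samples, which may be technical.

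The glycan is built on dolichol, a long lipid of the ER membrane. Sugars are added first on the cytosolic face, then on the luminal face after the lipid-linked glycan has been flipped, and the oligosaccharyltransferase moves the finished glycan to the nascent protein. Glucosidases then trim it, and a glucosyltransferase that recognises misfolded glycoproteins returns them to the lectin chaperones. Tunicamycin blocks the first of these reactions, which is catalysed by the enzyme that Dpagt1 encodes. Hepatocytes secrete large amounts of glycoproteins, and loss of N-glycans in the ER lumen triggers the unfolded protein response.

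Array medians of the deposited signal ran from 34.6 to 53.5, a log2 spread of 0.63, and the values below are quantile normalized signals. Eif2ak3 read 240 to 443 in WT control, 1725 to 2422 in WT tunicamycin, 127 to 157 in lsPERK control and 239 to 316 in lsPERK tunicamycin livers. It lay below WT in both treatments without overlap, and still rose with tunicamycin in lsPERK liver (log2 change 1.01, SE 0.19, limma adjusted p 0.00282). Where its probes lie relative to the deleted part is not stated. The stress genes Ddit3, Creld2 and Hspa5 rose in both genotypes, by log2 6.12, 4.33 and 1.26 in WT and 2.45, 3.39 and 1.02 in lsPERK liver, whereas Atf4 rose in WT (log2 change 1.86, limma adjusted p 1.66e-06) and changed by 0.07 in lsPERK liver (adjusted p 0.851). The summed signal of 6 hepatocyte markers was 110915 to 120492 over all arrays. Their mean log2 signals of 13.89 to 14.5 lie at the top of the array's range, so they check the tissue and not a change in it. In RNA of whole liver, fewer cells of a type and less RNA per cell cannot be told apart.

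Dpagt1, the target of the drug, rose in both genotypes. Its signal was 916, 1030 and 850 on the WT control arrays and 1602, 1634, 1517 and 1686 on the WT tunicamycin arrays. In lsPERK liver it was 954, 914 and 945 under control and 1763, 1875, 1703 and 1687 after tunicamycin. Every treated array lay above every control array, as it did for 21.7% of all genes in WT and 13.4% in lsPERK liver, and the controls of both genotypes overlapped. The rise was 1.73-fold in WT liver (log2 change 0.79, SE 0.09, 95% confidence interval 0.60 to 0.98, limma adjusted p 6.39e-06) and 1.87-fold in lsPERK liver (log2 change 0.91, SE 0.09, 95% confidence interval 0.72 to 1.09, adjusted p 1.18e-05). The difference between both rises was 0.11 on the log2 scale, with an interval of -0.15 to 0.38 (adjusted p 0.587). Each lsPERK tunicamycin array also read higher than each WT tunicamycin array, by as little as 1 unit at the nearest pair, and that difference missed the threshold (log2 0.13, adjusted p 0.257). The controls differed by 0.01 (adjusted p 0.997).

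Of the 32 tested members, 15 rose and 6 fell with tunicamycin in WT liver, where 20.7% of all genes were called higher and 26% lower (46.8% in all) at a limma adjusted p under 0.05. In lsPERK liver 16 members rose and 1 fell, against 8.43% of all genes called higher and 7.29% lower. The median log2 change of the members was 0.21 in WT and 0.48 in lsPERK liver, beside -0.13 and -0.02 over all genes tested. How many members fell in WT liver depends on the scaling of the arrays. With the signals as deposited, all 20 WT calls were rises and none of the 6 falls was called, where 29.9% of all genes were called higher and 5.8% lower. With each array centred on its median 17 members rose and 2 fell, against 25% and 16.2% of all genes. The same scalings moved the median WT change of all genes from -0.13 to 0.30 and 0.01. Relative to that median gene, 23 of 32 members lay above it in WT liver as reported and 24 under either other scaling, while in lsPERK liver 29, 30 and 30 did. Median centring subtracts a constant from each array, so changes relative to the median gene are nearly equal to those as deposited by construction. The deposited and median-centred values are therefore not separate checks of that position.

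The same 15 members rose in both genotypes, 46.9% of the members, while 6.41% of all genes tested did so. They were Dhdds and Dpm2 of dolichol supply, Dpagt1 and Alg2 of the cytosolic steps, Alg12 and Alg8 of the luminal steps, Stt3a, Stt3b, Rpn1, Dad1, Ddost, Ostc and Magt1 of the transferase, and Mogs and Uggt1 of trimming and folding control. Both responses come from separate arrays of each genotype. The 15 made up 100% of the members that rose in WT and 93.8% of those that rose in lsPERK liver, where the corresponding shares over all genes were 31% and 76.1%. All 15 rises were also called in WT liver with the signals as deposited, and 12 of them in lsPERK liver, all but Alg8, Stt3a and Stt3b. That scaling raised the share of all genes called higher in WT liver from 20.7% to 29.9%. In lsPERK liver it lowered the share from 8.43% to 3.33%. After median centring 14 of the 15 were called in WT liver, all but Dad1, and all 15 in lsPERK liver. The 6 members that fell in WT liver were not called in lsPERK liver: Srd5a3, Dolk, Dpm1, Alg5 and Mpdu1 of dolichol supply and Alg14 of the cytosolic steps. That pattern held for 18.8% of the members and for 20.4% of all genes. No member fell in both, as 5.28% of all genes did.

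**Figure D1:**
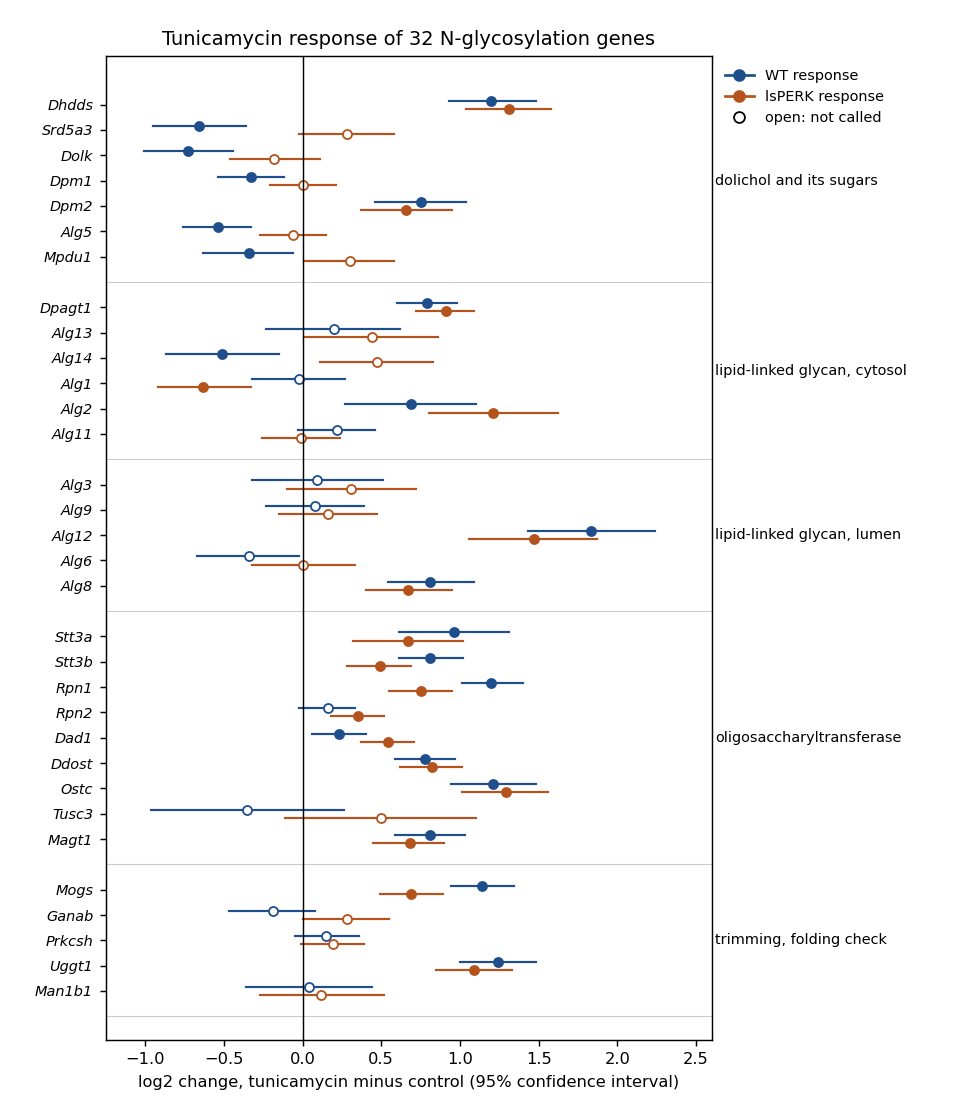
Log2 change from control to tunicamycin (horizontal axis) with its 95% confidence interval for the 32 tested members, grouped by step, in WT (blue) and lsPERK (orange) liver; filled points passed a limma adjusted p of 0.05. The transferase genes lie mostly right of 0 in both genotypes, whereas Srd5a3, Dolk, Dpm1, Alg5 and Mpdu1 have filled points left of 0 for WT and open points for lsPERK liver.

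Promoters were read for the members because many of them rose together. RefSeq (assembly GRCm38.p6) gave a window of 250 bases before to 50 bases after the gene start for 28 of the 33 members and for 27025 genes in all, and none for Dpagt1, Alg2, Alg11, Ostc and Tusc3. The letter patterns were searched on both strands. TGACGTG, the core bound by XBP1 and ATF6, occurred in 3 of the 28 members (10.7%), in 2.22% of all windows and in 3.17% of those of the genes tested. The ER stress element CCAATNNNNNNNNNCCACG occurred in 1 member (3.57%), in 0.137% of all windows and in 0.164% of those of the genes tested. The shorter second form, ATTGG then any base then CCACG, found in 0.0444% of all windows and 0.082% of those of the genes tested, matched no member window. TGATGNAA, a C/EBP and ATF4 pattern found in 4.51% and 2.83% of these windows, matched none either. The 4 genes with a match are all among the 15 that rose in both genotypes, 12 of which had a window. They are printed in the direction of the gene, 5′ to 3′, because they carry the matches, and capitals mark the matching letters.
Dhdds, TGACGTG at -9 to -3 from the start, chr4:134000883-134000901, minus strand: cacgtagaggTGACGTGtt
Dpm2, TGACGTG on the opposite strand at -52 to -46, chr2:32570796-32570822, plus strand: aaagtgcccgCACGTCAgctcagacga
Mogs, TGACGTG at -34 to -28, chr6:83115462-83115488, plus strand: gggccggaccTGACGTGaaagcgggat
Alg12, CCAAT and CCACG of the ER stress element at -220 to -202, chr15:88819510-88819548, minus strand: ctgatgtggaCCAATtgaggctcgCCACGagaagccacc
A match describes letters in this window and does not show that a factor binds there.

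In the first step, dolichol supply and the making of its sugar phosphates, WT liver split in opposite directions. All 7 tested members were called there, 2 higher and 5 lower, while in lsPERK liver 2 were higher and none lower. Over all genes, 20.7% were called higher and 26% lower in WT liver, and 8.43% and 7.29% in lsPERK liver. The median log2 change was -0.34 in WT and 0.28 in lsPERK liver. Dhdds, the catalytic subunit of the enzyme that makes the dolichol chain, carries the match nearest to its start of those printed above. It read 421, 553 and 458 under WT control, 980, 1199, 1195 and 1008 under WT tunicamycin, 549, 434 and 525 under lsPERK control, and 1236, 1332, 1134 and 1263 under lsPERK tunicamycin. Treated arrays were higher without overlap in both genotypes, with rises of 2.30-fold (log2 1.2, SE 0.13, limma adjusted p 4.36e-06) and 2.48-fold (log2 1.31, SE 0.13, adjusted p 1.22e-05). Dpm2, a regulatory subunit of dolichol-phosphate mannose synthase, rose from 414 to 503 in WT controls to 665 to 892 (log2 change 0.75, SE 0.13, adjusted p 0.000407). In lsPERK liver it rose from 378 to 491 to 647 to 769 (log2 change 0.66, SE 0.13, adjusted p 0.00431).

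The remaining tested genes of this step fell in WT liver. Dolk, the kinase that makes dolichol phosphate, read 656, 686 and 837 in WT controls and 408, 373, 432 and 548 after tunicamycin, all below the controls, as for 26.5% of all genes. Its log2 change was -0.73 (SE 0.13, limma adjusted p 0.000459), against -0.18 (adjusted p 0.433) in lsPERK liver, where it read 647, 660 and 744 under control and 590, 588, 609 and 631 after the drug. There too Dolk was lower without overlap, as for 13.8% of all genes, but not called. Srd5a3, a reductase of polyprenol, fell from 321, 257 and 285 to 187, 176, 163 and 202 in WT liver. In lsPERK liver it read 222, 173 and 189 under control and 233, 241, 204 and 267 after tunicamycin, so that its controls lay below the WT controls and its treated arrays above the WT treated arrays. The WT log2 change was -0.66 (SE 0.14, adjusted p 0.00135) and the lsPERK change 0.28 (SE 0.14, adjusted p 0.202). Of the 4 kept probe sets of Srd5a3, 3 were called lower in WT liver.

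Alg5, which makes dolichol-phosphate glucose, read 1416, 1296 and 1474 in WT controls and 951, 851, 1016 and 1015 after tunicamycin. The treated arrays were all lower (log2 change -0.54, SE 0.10, limma adjusted p 0.000471), whereas in lsPERK liver 1433, 1247 and 1255 overlapped with 1139, 1276, 1284 and 1335 (log2 change -0.06, adjusted p 0.76). Mpdu1, needed for the use of dolichol-linked mannose and glucose, read 1200, 1392 and 1708 in WT controls and 1079, 954, 1302 and 1161 after tunicamycin. These groups overlapped, and the call (log2 change -0.34, SE 0.13, adjusted p 0.0467) was lost when any of 11 of the 14 arrays was left out, with changes between -0.36 and -0.21. The exceptions were WT tunicamycin replicate 3, WT control replicate 1 and lsPERK tunicamycin replicate 1. In lsPERK liver Mpdu1 read 1138, 1067 and 1169 under control and 1210, 1383, 1466 and 1490 after tunicamycin, higher without overlap but not called (log2 change 0.30, adjusted p 0.156). Dpm1, the catalytic subunit of the mannose synthase, fell from 2729 to 2840 to 1972 to 2515 in WT liver (log2 change -0.33, SE 0.10, adjusted p 0.0116) on 1 of its 2 kept probe sets, and changed by 0 in lsPERK liver (adjusted p 0.999).

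These 5 falls, with that of Alg14, were below the median gene as reported and as deposited, and so also after median centring, which keeps that position. Only those of Srd5a3 and Dolk were also called after median centring and none with deposited signals. As deposited, the log2 change was -0.15 for Srd5a3 and -0.16 for Dolk, 0 for Alg5, and above 0 for Dpm1 (0.12), Mpdu1 (0.19) and Alg14 (0.07). Relative to the median gene, Dolk stood at -0.60 as reported and -0.46 in both other scalings, Srd5a3 at -0.53 and -0.45, Alg5 at -0.41 and -0.31, and Dpm1 at -0.20 and -0.18. Alg14 went from -0.38 to -0.23 and Mpdu1 from -0.21 to -0.11, both by over 1.5 times. Markers of other liver cells were read in WT liver too, where 26% of all genes were called lower and the median gene changed by -0.13. All 8 Kupffer cell markers had negative log2 changes (median -0.70, 1 called, 12.5%), with a summed signal of 8479 to 23953 in controls and 4917 to 15988 after tunicamycin. Of 7 endothelial markers 2 were called lower (28.6%, median -0.07, summed signal 5509 to 8799 and 4819 to 7625). Of 6 tested stellate cell or fibroblast markers 3 were (50%, median -0.46, 10409 to 14642 and 8280 to 11881). In lsPERK liver, where 7.29% of all genes were called lower, none of these 3 lists had a call, with a median of -0.52 for the Kupffer cell list. Their part in the falls was not tested.

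**Figure D2:**
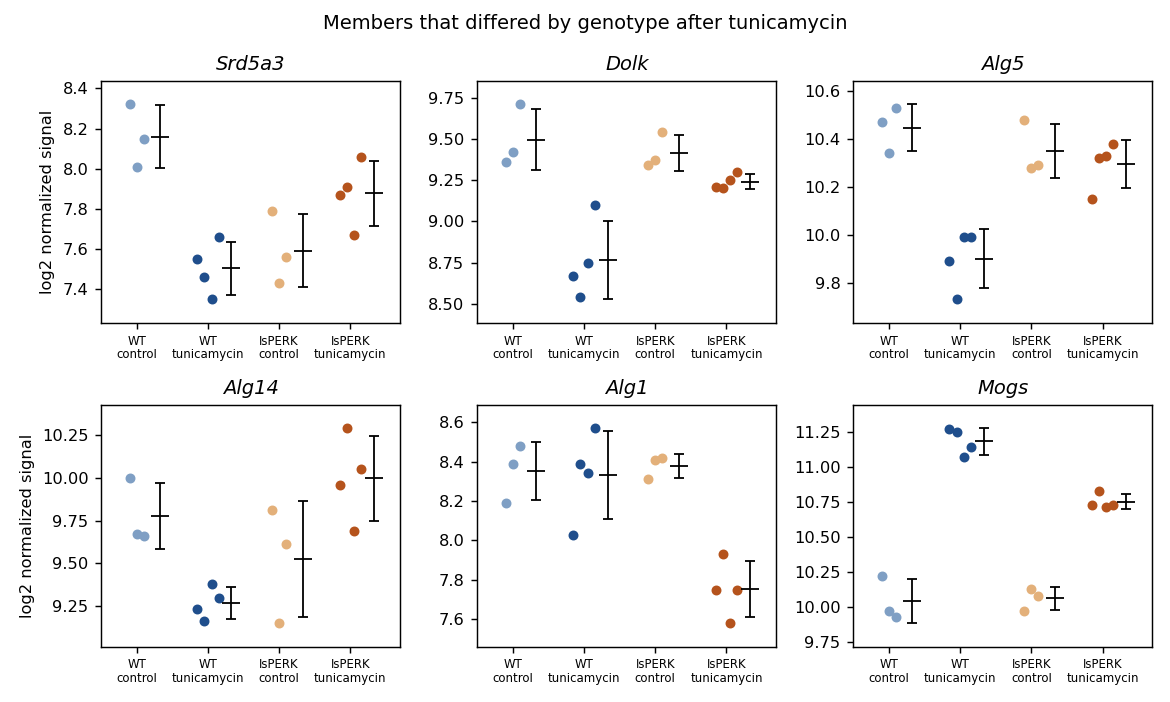
Log2 normalized signal (vertical axis, its range set per panel) on each array for 6 members that differed between the genotypes after tunicamycin; points are arrays, and bars give the mean and SD of each group. Srd5a3, Dolk and Alg5 drop in WT tunicamycin livers, Alg14 is high in lsPERK tunicamycin livers, and Alg1 and Mogs are lower there than in WT tunicamycin livers.

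On the cytosolic face, 2 of 6 members rose and 1 fell in each genotype, and the genes that fell were not the same. These calls are 50% of the step, near the 46.8% of all genes called in WT liver and above the 15.7% in lsPERK liver. Beside Dpagt1, Alg2, which adds mannoses to the growing chain, rose in both. It read 582, 865 and 664 in WT controls and 1296, 1041, 1071 and 1081 after tunicamycin (log2 change 0.69, SE 0.19, limma adjusted p 0.00917), and 635, 457 and 912 against 1434, 1450, 1597 and 1472 in lsPERK liver (log2 change 1.21, SE 0.19, adjusted p 0.000733). The treated arrays were higher throughout. The difference between the responses was 0.52 with an interval of -0.06 to 1.11 (adjusted p 0.207). Alg14, the membrane anchor of the enzyme that adds the second N-acetylglucosamine, read 1025, 812 and 808 in WT controls and 602, 572, 668 and 628 after tunicamycin. That fall (log2 change -0.51, SE 0.17, adjusted p 0.0225) was called on 1 of its 2 kept probe sets and was lost without WT control replicate 1, the highest control (log2 change -0.39, adjusted p 0.106). In lsPERK liver Alg14 read 899, 566 and 784 under control and 996, 1252, 824 and 1057 after tunicamycin, with overlap (log2 change 0.47, SE 0.17, adjusted p 0.0738), and that rise was called after median centring (0.59, adjusted p 0.0332).

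Alg1, the enzyme that adds the first mannose, showed the opposite order. It read 293, 336 and 356 in WT controls and 261, 336, 323 and 380 after tunicamycin, with no difference beyond the spread (log2 change -0.02, limma adjusted p 0.907). In lsPERK liver 317, 340 and 341 became 215, 244, 191 and 215, lower on every treated array (log2 change -0.63, SE 0.14, adjusted p 0.00706). Alg13, the catalytic partner of Alg14, ranged from 139 to 286 over the arrays and Alg11, which adds the last cytosolic mannoses, from 596 to 825, and neither was called in either response on the reported scale. Alg11 was higher on all 4 WT tunicamycin arrays (801 to 825) than on the WT controls (686 to 709), with a log2 change of 0.22 (adjusted p 0.141). The WT rise of Alg11 was called under both other scalings (0.79 as deposited, 0.50 after median centring) and on a fainter probe set, and that of Alg13 as deposited (0.69, adjusted p 0.0388).

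On the luminal face, 2 of 5 members (40%) rose in each genotype and none fell. Of all genes, 20.7% were called higher in WT and 8.43% in lsPERK liver, and 46.8% and 15.7% in either direction. Alg12, which adds a late mannose and carries the ER stress element printed above, had the largest rise of all members in both. Its signals of 91.8, 171 and 148 in WT controls became 486, 417, 521 and 468, a 3.56-fold rise (log2 change 1.83, SE 0.19, limma adjusted p 3.44e-06). In lsPERK liver 124, 101 and 143 became 334, 323, 359 and 325, a 2.76-fold rise (log2 change 1.47, SE 0.19, adjusted p 0.000133). Treated and control arrays were well apart in both. Alg8, the second glucosyltransferase, rose from 291, 323 and 335 to 501, 604, 545 and 573 in WT liver (log2 change 0.81, SE 0.13, adjusted p 0.00015) and from 366, 278 and 385 to 541, 604, 493 and 536 in lsPERK liver (log2 change 0.67, SE 0.13, adjusted p 0.00288). Alg6, which adds the first glucose, read 197, 227 and 218 in WT controls and 183, 168, 190 and 140 after tunicamycin, lower without overlap but not called (log2 change -0.34, SE 0.15, adjusted p 0.0796). In lsPERK liver Alg6 read 265, 246 and 186 under control and 232, 203, 247 and 242 after tunicamycin (log2 change 0, adjusted p 0.995). The mannosyltransferases Alg3 and Alg9 ranged from 346 to 643 and from 255 to 445, with log2 changes between 0.08 and 0.31 that were not called, except the WT change of Alg3 as deposited (0.66, adjusted p 0.0281).

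The oligosaccharyltransferase had the most rises of the 5 steps: 7 of 9 subunits in WT and 8 of 9 in lsPERK liver, with none lower, and median log2 changes of 0.81 and 0.67. Among all genes, 20.7% and 8.43% were called higher. Rpn1, a subunit shared by all forms of the enzyme, read 3788, 3486 and 3209 in WT controls and 7909, 9141, 7948 and 7261 after tunicamycin (log2 change 1.2, SE 0.09, limma adjusted p 2.69e-07). Its lsPERK signals were 3754, 3887 and 4282 under control and 6604, 7357, 6103 and 6663 after tunicamycin (log2 change 0.75, SE 0.09, adjusted p 9.72e-05). All treated arrays were above all controls, and 5 of its 6 kept probe sets were called higher in each genotype. Ostc, a subunit of the form that contains Stt3a, rose from 2487, 2362 and 2104 to 4862, 6472, 4991 and 5213 in WT liver (log2 change 1.21, SE 0.13, adjusted p 4.23e-06). In lsPERK liver it rose from 2928, 2562 and 2181 to 6741, 6943, 5510 and 5698 (log2 change 1.29, SE 0.13, adjusted p 1.44e-05). Ddost, another shared subunit, rose from 1682, 1809 and 1760 to 3006, 3196, 3057 and 2768 in WT liver (log2 change 0.78, SE 0.09, adjusted p 9.85e-06) and from 1956, 1780 and 1751 to 3718, 3149, 2968 and 3087 in lsPERK liver (log2 change 0.82, SE 0.09, adjusted p 3.64e-05).

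**Figure D3:**
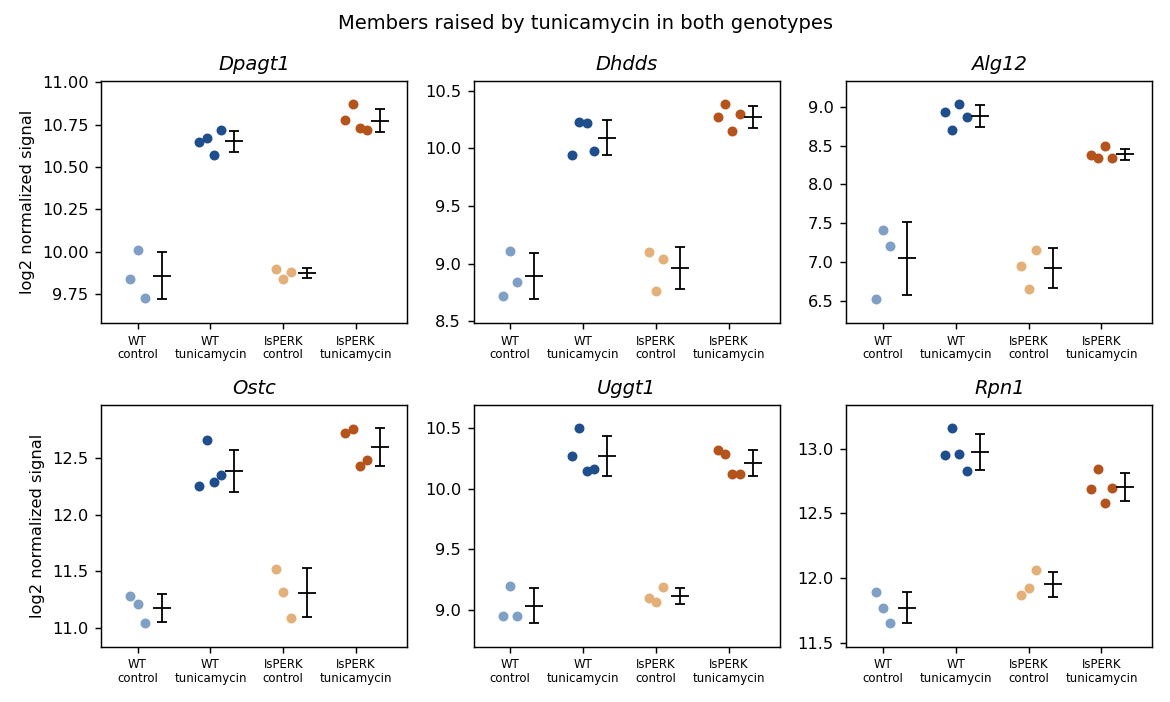
Log2 normalized signal (vertical axis, its range set per panel) on each array for 6 members that rose in both genotypes; points are arrays, and bars give the mean and SD of each group. In every panel the 8 tunicamycin arrays lie above the 6 control arrays, with Alg12 and Rpn1 higher in WT than in lsPERK tunicamycin livers by group mean.

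Both catalytic subunits rose. Stt3a, which glycosylates chains as they are translocated, read 2036 to 3285 in WT controls and 3911 to 5666 after tunicamycin (log2 change 0.96, SE 0.16), and Stt3b, which acts on sites left over, read 3305 to 3804 and 5789 to 6761 (log2 change 0.81, SE 0.10). In lsPERK liver Stt3a rose from 2887 to 3605 to 4486 to 5707 (log2 change 0.67, limma adjusted p 0.0125) and Stt3b from 3768 to 4467 to 5381 to 6722 (log2 change 0.49, adjusted p 0.00339), and neither was called there with the signals as deposited (adjusted p 0.123 and 0.131). Magt1, the oxidoreductase subunit of the Stt3b form, rose by log2 0.81 and 0.68. Its relative Tusc3 read 171 to 351 in WT and 133 to 383 in lsPERK liver, with wide intervals around its log2 changes of -0.35 (-0.96 to 0.26) and 0.50 (-0.11 to 1.10), and was not called.

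The small shared subunit Dad1 and the large subunit Rpn2 had smaller log2 changes in WT liver. Dad1 read 3234, 3356 and 3543 in WT controls and 3555, 4088, 4245 and 3979 after tunicamycin, higher by a narrow margin (log2 change 0.23, SE 0.08, limma adjusted p 0.0267). That WT call was made on 1 of 2 kept probe sets, was absent after median centring (log2 change 0.30, adjusted p 0.071), without the trend (0.23, adjusted p 0.0536) and with the β-actin 3′ to 5′ ratio as a covariate (0.13, adjusted p 0.153), and was lost without WT tunicamycin replicate 2 or 3 or WT control replicate 1 or 2, with changes of 0.20 to 0.22. In lsPERK liver Dad1 rose from 3579, 3086 and 3254 to 4969, 4891, 4708 and 4665, clear of the controls (log2 change 0.54, SE 0.08, adjusted p 0.000352). Rpn2 read 2282, 2250 and 2346 in WT controls and 2603, 2793, 2469 and 2373 after tunicamycin, higher without overlap but not called (log2 change 0.16, SE 0.08, adjusted p 0.13), although both other scalings called it (0.61 and 0.32). In lsPERK liver Rpn2 read 2451, 2487 and 2483 under control and 3378, 3348, 2994 and 2908 after tunicamycin (log2 change 0.35, SE 0.08, adjusted p 0.00963), which was not called with the signals as deposited (adjusted p 0.326).

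Among the genes of trimming and folding control, 2 of 5 (40%) rose in each genotype and none fell. The shares of all genes called higher were 20.7% in WT and 8.43% in lsPERK liver, and those called in either direction 46.8% and 15.7%. Mogs, the glucosidase that removes the outermost glucose and the third gene with TGACGTG in its window, read 1195, 1002 and 977 in WT controls and 2465, 2429, 2143 and 2258 after tunicamycin (log2 change 1.14, SE 0.09, limma adjusted p 4.98e-07). In lsPERK liver 1002, 1118 and 1086 became 1701, 1825, 1672 and 1703 (log2 change 0.69, SE 0.09, adjusted p 0.000205). The treated arrays of both genotypes were above the controls, and the WT treated arrays above the lsPERK treated arrays. Uggt1, which puts glucose back on misfolded glycoproteins, rose from 494, 587 and 495 to 1233, 1450, 1137 and 1141 in WT liver (log2 change 1.24, SE 0.11, adjusted p 1.12e-06) and from 547, 535 and 583 to 1276, 1248, 1110 and 1111 in lsPERK liver (log2 change 1.09, SE 0.11, adjusted p 1.98e-05). Its WT rise was called on 1 of 2 kept probe sets.

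Neither subunit of glucosidase II, which removes the remaining glucoses, was called in a response. The catalytic subunit Ganab read 1393, 1523 and 1259 in WT controls and 1523, 1123, 1121 and 1128 after tunicamycin, with replicate 1 apart from the rest (log2 change -0.19, SE 0.13, limma adjusted p 0.232). In lsPERK liver it read 1297, 1500 and 1592 under control and 1900, 1887, 1689 and 1599 after tunicamycin, higher by a narrow margin but not called (log2 change 0.28, SE 0.13, adjusted p 0.172). The other subunit, Prkcsh, read 1552 to 1667 and 1674 to 2004 in WT and 1555 to 1601 and 1655 to 1966 in lsPERK liver. These groups did not overlap, and the log2 changes of 0.15 and 0.19 missed the threshold (adjusted p 0.195 and 0.198), except that both other scalings called the WT change. Man1b1, the ER mannosidase that marks slow folders, ranged from 127 to 220 with log2 changes of 0.04 and 0.12.

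Under control conditions no member was called between the genotypes, and neither was any of the 12052 genes (0% called by limma). Eif2ak3 itself was among the genes not called, although each lsPERK control array read below each WT control array. The absence of calls therefore does not show that the control livers were alike. Before adjustment 3 members had a p under 0.05. Srd5a3 was lower on every lsPERK control array than on the WT controls (log2 difference -0.56, SE 0.15, adjusted p 0.991), as was Mpdu1 (log2 difference -0.34, SE 0.14, adjusted p 0.991), and Stt3b was higher with overlap (log2 difference 0.23, SE 0.10, adjusted p 0.991). Rpn2 was higher on each lsPERK control array (2451 to 2487) than on the WT controls (2250 to 2346) at a log2 difference of 0.11. Groups of 3 arrays left no overlap upwards for 2.79% and downwards for 4.59% of all genes.

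After tunicamycin, 8 members were higher and 4 lower in lsPERK than in WT liver, where 18.5% of all genes were called higher and 16.9% lower (35.4% in all). The higher ones were Alg14 (log2 difference 0.73, SE 0.15, limma adjusted p 0.00219), Ganab (0.54, SE 0.12, adjusted p 0.0026), Dolk (0.47, SE 0.12, adjusted p 0.00815), Alg6 (0.45, SE 0.14, adjusted p 0.0224), Alg5 (0.39, SE 0.09, adjusted p 0.00405), Srd5a3 (0.37, SE 0.13, adjusted p 0.034), Rpn2 (0.30, SE 0.07, adjusted p 0.00605) and Dad1 (0.28, SE 0.07, adjusted p 0.00792). In all 8 the lsPERK arrays lay above the WT arrays without overlap, as for 18.7% of all genes, and 17.7% lay below. The lower ones were Alg1 (log2 difference -0.58, SE 0.13, adjusted p 0.00278), Alg12 (-0.49, SE 0.17, adjusted p 0.0398), Mogs (-0.43, SE 0.09, adjusted p 0.00152) and Rpn1 (-0.27, SE 0.09, adjusted p 0.0243). Alg1, Alg12 and Mogs did not overlap between the genotypes, whereas Rpn1 did, with 7357 on the highest lsPERK array and 7261 on the lowest WT array.

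This split depends on the scaling too. With the signals as deposited, 0 members were higher and 3 lower (Alg1, Alg12 and Mogs), and after median centring 1 was higher and 4 lower, Alg14 being the 1 of the 8 higher calls that was kept. Of all genes, 5.82% were called higher and 16.1% lower as deposited, and 11.4% and 19.1% after median centring. The lower values of Alg1, Alg12 and Mogs were called under all 3 scalings. The median gene differed by 0.05 as reported, by -0.11 as deposited and by -0.03 after median centring. Several calls were lost when any 1 of several arrays was left out. Srd5a3 was not called without any of WT tunicamycin replicates 1, 2 and 3 or lsPERK tunicamycin replicates 1, 2 and 4 (log2 differences 0.31 to 0.39), nor Alg12 without WT tunicamycin replicates 1, 3 or 4 or lsPERK tunicamycin replicates 1, 2 or 4 (-0.50 to -0.44). Alg6 was not called without WT tunicamycin replicate 4 or lsPERK tunicamycin replicates 3 or 4 (0.36 to 0.42), nor Rpn1 without WT tunicamycin replicate 2 or lsPERK tunicamycin replicates 1 or 3 (-0.27 to -0.21). The 2 calls of Dad1 and Rpn1 were made on 1 of 2 and 1 of 6 kept probe sets, those of Srd5a3 and Alg12 on 2 of 4 and 2 of 3.

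The difference between the tunicamycin responses, lsPERK minus WT, was called for 7 members, 4 higher and 3 lower, against 10.2% and 9.72% of all genes (19.9% in all). The largest were Alg14, which fell in WT liver and was not called in lsPERK liver (difference of log2 changes 0.98, SE 0.24, limma adjusted p 0.0105), and Srd5a3 (0.94, SE 0.19, adjusted p 0.00448). Mpdu1 (0.64, SE 0.19, adjusted p 0.0273) and Alg5 (0.48, SE 0.14, adjusted p 0.0262) also fell in WT liver and were not called in lsPERK liver. Alg1 differed the other way (-0.60, SE 0.19, adjusted p 0.0432), with its fall in lsPERK liver. The rises of Rpn1 (-0.46, SE 0.13, adjusted p 0.0249) and Mogs (-0.45, SE 0.13, adjusted p 0.0288) were smaller in lsPERK liver, though both remained called there. Dolk (0.55, SE 0.19, adjusted p 0.0522), Dad1 (0.31, SE 0.11, adjusted p 0.063) and Ganab (0.47, SE 0.18, adjusted p 0.0843) missed the threshold.

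The 4 positive differences fell to 2 (Srd5a3 and Alg14) after median centring and to 0 with deposited signals, where 4 members were lower (Alg1, Rpn1, Mogs and Alg12). Of all genes, 5.5% were called higher and 9.88% lower after median centring, and 1.05% and 14.6% with deposited signals. Alg1 and Mogs kept their call under all 3 scalings. The median gene differed by 0.08, -0.01 and -0.42 in the reported, median-centred and deposited scale. In each, 17 of 32 members lay above it, where the median-centred and deposited counts are tied by construction. Leaving out single arrays gave 3 to 8 called members. There were 3 without WT control replicate 3, without lsPERK tunicamycin replicate 4 or without lsPERK control replicate 2, and 4 without lsPERK tunicamycin replicate 3. Alg1 lost its call without any 1 of 11 arrays (-0.64 to -0.52; all but WT tunicamycin replicate 1, WT control replicate 3 and lsPERK tunicamycin replicate 2), and Mogs without any 1 of 8 (-0.44 to -0.39; WT tunicamycin 1, WT control 2 and 3, lsPERK tunicamycin 1, 3 and 4, lsPERK control 2 and 3). Alg5 lost its call without WT control 1 or 3, lsPERK tunicamycin 4 or lsPERK control 2 or 3 (0.44 to 0.47), Mpdu1 without WT control 3, lsPERK tunicamycin 3 or 4 or lsPERK control 2 (0.51 to 0.62), and Rpn1 without WT control 3 or lsPERK control 3 (-0.40 to -0.39). Srd5a3 and Alg14 kept theirs with each array left out. By probe set, the difference was called on 2 of 4 for Srd5a3, 1 of 2 for Alg14 and 1 of 6 for Rpn1, and none of these was called on the mean of the kept probe sets (0.64, 0.76 and -0.09, adjusted p 0.058, 0.0531 and 0.816).

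**Figure D4:**
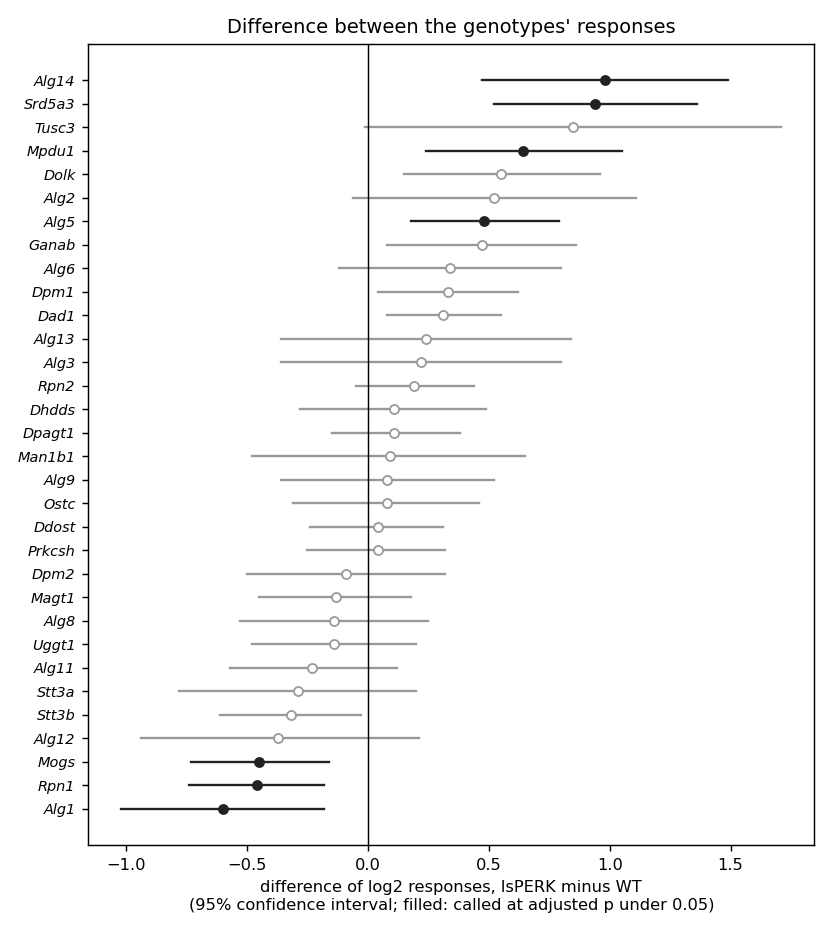
Difference of the tunicamycin responses, lsPERK minus WT, on the log2 scale (horizontal axis) with its 95% confidence interval for the 32 tested members; filled points passed a limma adjusted p of 0.05. Alg14 and Srd5a3 stand at 0.98 and 0.94, while Dpagt1, at 0.11, has an interval that spans 0.

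The genes next to these members in the pathway were read from 5 further lists of 43 genes, 41 of which were tested. In WT liver 20 rose and 12 fell, where 20.7% of all genes were called higher and 26% lower, and in lsPERK liver 20 rose and 1 fell, where 8.43% and 7.29% were. The 12 falls, like those of all genes, were fewer under other scalings. With the signals as deposited 22 rose and 2 fell in WT liver, and after median centring 21 rose and 7 fell. Among the genes that make sugar nucleotides, 6 of 10 rose in each genotype and 1 fell in WT liver. Gfpt1, the entry enzyme of the hexosamine route to UDP-N-acetylglucosamine, rose by log2 3.43 in WT and 2.13 in lsPERK liver (difference -1.29, limma adjusted p 0.00178). Gmppb, which makes GDP-mannose, rose by 3.05 and 2.55 (difference -0.51, adjusted p 0.12). Gnpnat1, a later hexosamine enzyme, rose by 1.49 and 0.32 (difference -1.17, adjusted p 8.06e-05). Nus1, the partner subunit of Dhdds, rose by 1.18 and 0.53 (difference -0.65, adjusted p 0.0165), and Dolpp1, which recycles dolichol pyrophosphate, rose by 0.59 in WT liver and changed by -0.15 (adjusted p 0.608) in lsPERK liver.

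Of the 4 further transferase subunits and partners, 2 rose in WT and all 4 in lsPERK liver, beside 20.7% and 8.43% of all genes. Krtcap2 rose by log2 0.70 and 0.96 and Tmem258 by 0.99 and 1.2. Mlec, a lectin that binds the newly transferred glycan, changed by 0.22 (limma adjusted p 0.22) in WT liver and rose by 0.94 in lsPERK liver, a difference of 0.72 (adjusted p 0.0206) that was not called after median centring (0.59, adjusted p 0.13) or with deposited signals (0.18, adjusted p 0.776). In the list of glycoprotein quality control, 8 of 9 tested genes rose in WT and 7 of 9 in lsPERK liver, beside the same shares of all genes. Edem3 and Edem1, which route misfolded glycoproteins to degradation, rose by 1.78 and 1.57 in WT liver and by 0.97 and 0.63 in lsPERK liver, and Mcfd2, a cargo receptor subunit for export from the ER, by 1.08 and 0.52. All 3 differences were called (adjusted p 0.00422, 0.00235 and 0.000877), that of Mcfd2 not after median centring (adjusted p 0.187).

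Downstream, in the Golgi, the direction in WT liver was mostly downward: 11 of 15 genes fell and 2 rose, with a median log2 change of -0.69, against 1 lower and 2 higher in lsPERK liver, where the median was -0.13. Lower calls over all genes also dropped, from 26% in WT to 7.29% in lsPERK liver, and higher calls from 20.7% to 8.43%. With the signals as deposited 2 fell and 2 rose in WT liver, and after median centring 7 fell and 2 rose. The share of all genes called lower in WT liver moved the same way, from 26% to 5.8% and 16.2%. St6gal1, which adds sialic acid and is abundant in hepatocytes, fell by 1.78 on the log2 scale in WT liver (limma adjusted p 2.98e-06) and changed by -0.28 in lsPERK liver (adjusted p 0.334). Slc35a1, the Golgi carrier of CMP-sialic acid, fell by 1.15 (adjusted p 1.87e-06) and changed by -0.02. Both differences were called (1.49, adjusted p 0.00139; 1.13, adjusted p 0.000328), although neither was with deposited signals (0.97, adjusted p 0.0701 for St6gal1 and 0.58, adjusted p 0.25 for Slc35a1). Mgat2, the transferase that starts the second antenna, rose in both genotypes, by 1.57 and 1.29.

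**Figure D5:**
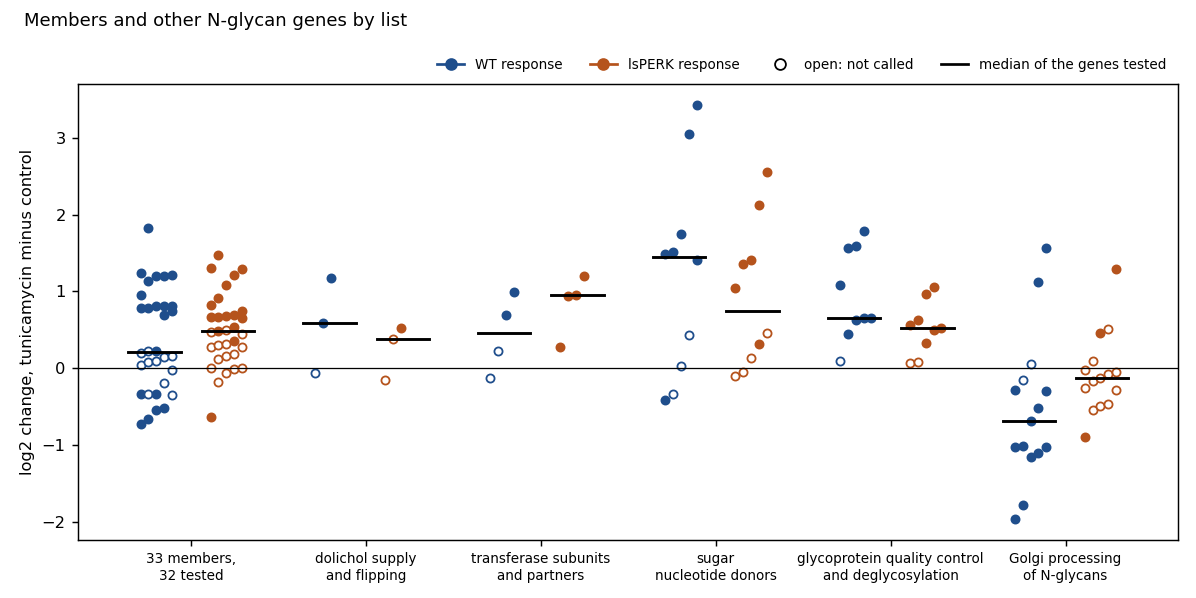
Log2 change from control to tunicamycin (vertical axis) of each tested gene, for the 32 tested members and the 5 further pathway lists, in WT (blue) and lsPERK (orange) liver; filled points passed a limma adjusted p of 0.05 and bars are medians. The members have medians of 0.21 and 0.48, and the Golgi list has medians of -0.69 in WT and -0.13 in lsPERK liver.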

How the data were processed

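Total RNA from mouse liver was hybridised to 14 Affymetrix arrays, 1 for each sample. The authors deposited 1 linear signal intensity per probe set and array, made with MAS5 and GCOS per the submitters' processing notes, with neither version nor scaling target given in the sources used here. The 45101 probe sets, 64 of them controls, had deposited intensities between 0.0312 and 27757. Precision is set by how many arrays each group holds.

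Log2 intensities were quantile normalized, with values as deposited and median centring as alternatives. The platform annotation named 1 gene for 34945 probe sets, several for 932 and none here for 9160. Each gene was read on its probe set with the highest mean log2 signal, and tested where at least 3 arrays exceeded the pooled median (log2 5.38). Group means of all 14 arrays were fitted in limma 3.58.1 (R 4.3.3) with a trend in mean expression and 10 residual degrees of freedom. The 5 contrasts were two-sided, and p-values were adjusted by Benjamini-Hochberg over 12052 genes. Adjusted p-values in the text are from these limma fits. Promoter windows came from RefSeq.

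Full values were given for Dpagt1, for members called between genotypes after tunicamycin or in the difference of responses, and for up to 3 members per step with the smallest p. Up to 3 genes per further list were named by the same rank, and Engase and Mgat5 were chosen after their values were seen. The members, lists and tests were chosen with earlier results of these data known. The labels do not tie equal replicate numbers to a shared animal, litter or day, so the fits have no block.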

Additional observations from a re-analysis of the deposited data

Results flagged for a closer look

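In 4 of 66 groups of 4 arrays, 1 array stood far from the other 3, where chance gives about 5 percent of groups. The value given is its gap to the nearest array as a share of the range of the group on the log2 scale. Ganab had a share of 0.98 in WT tunicamycin livers, where replicate 1 read 1523 and the others 1121 to 1128. Alg9 had 0.94 in the same group, with 364 on replicate 2 against 317 to 320. Stt3b had 0.886 in lsPERK tunicamycin livers, with 6722 on replicate 2 against 5381 to 5520. Alg2 had 0.831 in WT tunicamycin livers, with 1296 on replicate 1 against 1041 to 1081.

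The tunicamycin response differed between the genotypes for 7 members (21.9%) in the limma test of the difference itself, lsPERK minus WT. That share is near the 19.9% of all genes called. Which of these calls depend on scaling, single arrays or probe sets is given above. The log2 differences were 0.98 for Alg14 (adjusted p 0.0105), 0.94 for Srd5a3 (adjusted p 0.00448), 0.64 for Mpdu1 (adjusted p 0.0273), 0.48 for Alg5 (adjusted p 0.0262), -0.60 for Alg1 (adjusted p 0.0432), -0.46 for Rpn1 (adjusted p 0.0249) and -0.45 for Mogs (adjusted p 0.0288).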

How the results depend on the processing

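Of 1760 recomputed values of 57 called member results, 1552 kept direction and call, 204 lost the call and 4 changed sign, the last all with deposited signals: the WT changes of Dpm1 (0.12, adjusted p 0.6), Mpdu1 (0.19, adjusted p 0.419) and Alg14 (0.07, adjusted p 0.837) and the difference of responses of Alg5 (-0.03, adjusted p 0.946). Both WT and lsPERK rises of Dpagt1 kept their call in all 31 alternatives. Called members numbered 21 in WT, 17 in lsPERK, 12 between genotypes after tunicamycin and 7 in the difference of responses. With deposited signals the last 2 counts were 3 and 4, and with median centring 5 and 4. Over all genes tested, deposited signals called 5.7% in lsPERK liver against 15.7%, and 22% between treated genotypes against 35.4%. In the difference of responses, deposited signals called 15.7% of all genes against 19.9%. Median centring called 30.4% between treated genotypes and 15.4% in the difference. A minimum fold of 1.2 gave 11 in lsPERK liver, 1 between genotypes and 1 in the difference. The shares of all genes were then 5.24%, 17.2% and 8.61%. Xist, which is expressed from the inactive X of females, was high on 1 of 3 WT control, 1 of 4 WT tunicamycin, 2 of 3 lsPERK control and 2 of 4 lsPERK tunicamycin arrays. With Xist as a covariate over all 14 arrays, members called were 21 in WT, 17 in lsPERK, 16 between treated genotypes and 8 in the difference. The shares of all genes were then 51.6%, 19.8%, 38.9% and 24.1%. Arrays with low Xist signal alone, an alternative chosen after seeing the data, gave 20 in WT (44.3% of all genes) and 8 between treated genotypes (29.3%). Those with high signal gave 11 in lsPERK liver (9.2%). Counts for the other contrasts are not given. With high signal both WT groups, and with low signal the lsPERK control, then held 1 array. Where the text above names no cause of a change, the cause was not tested.

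Leaving out each array in turn gave 19 to 21 calls in WT, 17 to 19 in lsPERK, 0 to 0 between controls, 9 to 14 between treated genotypes and 3 to 8 in the difference. Of all genes, 40.9% to 47.5% were then called in WT and 9.37% to 17.1% in lsPERK liver. Between treated genotypes 30.7% to 36.4% were, and in the difference 16.2% to 19.1%. With the replicate number as a block the counts were 20, 17, 0, 13 and 9, and the WT rise of Dad1 was not called (0.24, adjusted p 0.0524). The block gave shares of all genes of 45.4%, 13.8%, 0%, 35.3% and 18.6%. Deviations of same-numbered arrays correlated between -0.37 and 0.42 (median 0.24, against -0.17 for other pairs), and 4 of 14 arrays correlated best with their own number. The numbers were not taken as pairs in the reported fit because the labels do not tie them. Whether equal numbers share a source was not tested. A fit of only the 2 groups of a contrast has no value for the difference of responses.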

Other observations

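Several members were read by more than 1 kept probe set. Dhdds was called higher on all 3 of its probe sets in both responses, and Alg12 on 3 of 3 in WT and 2 of 3 in lsPERK liver. Engase, an enzyme that releases N-glycans in the cytosol, rose by log2 1.59 in WT liver (limma adjusted p 2.31e-05) and changed by 0.07 in lsPERK liver (adjusted p 0.88), a difference of -1.53 (adjusted p 0.00257). Mgat5, a Golgi transferase of branched glycans, fell by 1.96 on the log2 scale in WT liver (adjusted p 2.13e-05) and changed by 0.10 in lsPERK liver (adjusted p 0.85), a difference of 2.06 (adjusted p 0.00141) that was also called after median centring (1.99, adjusted p 0.00267) and with deposited signals (1.58, adjusted p 0.0322). Its mean log2 signal was 6.72, with 13 of 14 arrays above the threshold of 5.38, and these values come from the brighter of its 2 kept probe sets.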
